A study of Mus musculus with 2 samples.

Results

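The VEGF and angiopoietin genes described here are the ligands Vegfa, Vegfc, Angpt1 and Angpt4 and the receptors Kdr, Flt1, Flt4, Nrp1, Tek and Tie1. They were chosen by symbol, which matched 10 of the 28006 features counted, 1 row each, and their values were read in every cell of both libraries. The ligands were followed across stromal cells and the receptors across endothelial cells. Femoral Cxcl12-GFP+ cells of 2 mice aged postnatal day 28 had been sequenced, with 1 library per mouse (Mouse #1 and Mouse #2). Both mice had the genotype Cxcl12(GFP/+); Cxcl12-iCreER; R26R(tdTomato/+) and had received tamoxifen at postnatal day 21. GFP was knocked in at 1 Cxcl12 allele. The inducible recombinase comes from a bacterial artificial chromosome transgene, and tdTomato marks cells in which it has acted and their progeny. The mice formed 1 group, so comparisons were made between classes of cells within them and not between groups of animals.

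VEGF ligands are secreted by cells around vessels and bind receptor tyrosine kinases on endothelial cells. Vegfa acts mainly through Kdr (VEGFR2), the main signaling receptor of blood vessel endothelium, while Flt1 (VEGFR1) binds Vegfa tightly and also exists as a soluble form that captures it. Vegfc binds Flt4 (VEGFR3), known from lymphatic vessels and also made by marrow sinusoids, and Nrp1 is a co-receptor of VEGF and of class 3 semaphorins. Angpt1 and Angpt4 activate Tek (Tie2), a receptor that stabilizes vessels and works with the orphan receptor Tie1. In bone marrow, perivascular stromal cells are known as a source of Angpt1, and sinusoids differ from arterioles in their receptors. The counted 3' tags do not separate isoforms, so soluble and membrane Flt1, or short and long Vegfa, were counted together.

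Limits of 1000 genes or more and 15% mitochondrial UMIs or less (unique molecular identifiers, 1 for each captured transcript) gave 2750 cells in Mouse #1 and 4582 in Mouse #2. Their libraries held 54940400 and 88790688 UMIs, and the median cell held 12966.5 and 12190 UMIs. The cells shared 7 barcodes between libraries, where 1.854 are expected by chance. The sort labels conflicted, with tdTomato+ cells in the extraction label and GFP+ cells in the cell label. In the data, 39.9% and 40.3% of reticular-like cells were tdTomato-positive, above a limit set at the 99th percentile of the hematopoietic cells of each mouse. By that choice of limit, 1.04% and 1.06% of hematopoietic cells passed it. Classes were rebuilt here from marker genes, with the 10 genes and their pathway lists left out of the clustering genes, and each carries "-like". The reticular-like class held 1262 and 2418 cells and raised 8 of 8 of its markers (Adipoq, Lpl and others) in each of its clusters. The preosteoblast-like class held 401 and 793 cells and raised 6 of 8, the periosteal-like class 77 and 238, and the osteoblast-like class 14 and 62. Endothelial-like cells numbered 151 and 138. All 8 arterial markers were higher in 1 endothelial cluster of 122 and 109 cells (arterial-type), and all 8 sinusoidal markers were higher in the other, of 29 and 29 cells (sinusoidal-type). Hematopoietic cells, 674 and 662, gave a comparison level, which is not a blank because their own expression is part of it. Because classes and values come from the same cells, differences between classes describe those classes.

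On the mm10 assembly (GRCm38) the 10 genes lie on 7 chromosomes, and all are protein-coding. Among the ligands, Vegfa (ENSMUSG00000023951) lies at chr17:46016993-46032369 on the minus strand and Vegfc (ENSMUSG00000031520) at chr8:54077606-54187096 on the plus strand. Angpt1 (ENSMUSG00000022309) lies at chr15:42424723-42676977 on the minus strand, and Angpt4 (ENSMUSG00000027460) at chr2:151911210-151945337 on the plus strand. Kdr (ENSMUSG00000062960, chr5:75932827-75978458) and Flt1 (ENSMUSG00000029648, chr5:147561604-147726011) share a chromosome and the minus strand. Tek (ENSMUSG00000006386, chr4:94739289-94874976, plus) and Tie1 (ENSMUSG00000033191, chr4:118471191-118490061, minus) share another. Flt4 (ENSMUSG00000020357) lies at chr11:49609263-49652739 and Nrp1 (ENSMUSG00000025810) at chr8:128358604-128503363, both on the plus strand.

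The promoters of Kdr, Flt1 and Tek are shown because these receptors moved together, being high in endothelial-like cells and near 0 in stromal cells. Each stretch is 150 bases of RefSeq sequence, from 160 to 11 bases before the RefSeq gene start (GRCm38.p6), written 5′ to 3′ in the direction of the gene. Capitals mark GGAA on either strand (GGAA or TTCC), the core letters bound by ETS family factors such as Erg.
Kdr, chr5:75978466-75978615, minus strand: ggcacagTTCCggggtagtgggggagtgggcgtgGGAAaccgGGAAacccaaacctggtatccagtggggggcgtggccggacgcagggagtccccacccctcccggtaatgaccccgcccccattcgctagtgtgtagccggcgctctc
Flt1, chr5:147726022-147726171, minus strand: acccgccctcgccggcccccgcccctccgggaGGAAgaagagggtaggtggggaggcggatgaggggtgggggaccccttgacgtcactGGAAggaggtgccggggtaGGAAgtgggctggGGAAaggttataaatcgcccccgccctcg
Tek, chr4:94739129-94739278, plus strand: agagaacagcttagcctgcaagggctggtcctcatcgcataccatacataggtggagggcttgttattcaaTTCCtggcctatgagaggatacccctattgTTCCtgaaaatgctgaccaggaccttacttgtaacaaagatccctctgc

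Flt1 held 4 matches in this window, and 10.5% of the 32851 promoter entries of the table held at least as many. Kdr held 3, a number reached by 25.5% of entries, and Tek held 2, reached by 50.5%. These letters are common, since 80.9% of promoters held at least 1 match and the median was 2. Flt4 and Tie1 had the same pattern of levels, but their windows overlap an annotated exon and are not printed; they held 1 and 3 matches. Of the 10 genes, 9 had an entry. The matches describe letters only, and binding was not measured.

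Among the named classes, Vegfa was highest in reticular-like cells, at 577 CPM in Mouse #1 and 648 CPM in Mouse #2 (CPM, the UMIs of a gene scaled to 1000000 UMIs of the class). It was 313 and 241 CPM in preosteoblast-like cells, and 89.7 and 132 CPM in periosteal-like cells. The lower of the reticular-like values stood above both preosteoblast-like values, which stood above both periosteal-like values. Osteoblast-like cells had 40.2 and 65.0 CPM, a range that overlapped that of hematopoietic cells (46.8 and 48.7 CPM). The hematopoietic types differed, with erythroid-like cells at 21.4 and 34.0 CPM and lymphoid-like cells at 44.2 and 42.5 CPM. Macrophage-like cells had 43.7 and 75.0 CPM, and myeloid-like cells 76.0 and 58.5 CPM. After each cell was thinned to 2000 UMIs, 54.7% and 58.7% of reticular-like cells held a Vegfa UMI, against 6.69% and 7.27% of hematopoietic cells, whose median depth was 11206.5 and 9669 UMIs beside 12356.5 and 11602 in reticular-like cells. Near-empty barcodes (1 to 100 UMIs) carried Vegfa at 423 and 435 CPM, so free RNA held this transcript. Unthinned, a mean of 90.6% of reticular-like cells held one. In these sums, fewer cells of a type and less RNA per cell cannot be told apart.

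Vegfc showed 2 high classes. Reticular-like cells had 272 and 258 CPM and arterial-type cells had 250 and 205 CPM, each class above the preosteoblast-like 139 and 96.4 CPM in both mice. Both reticular-like values exceeded both arterial-type values, but the nearest of them lay closer together than the mice did within the arterial-type class. Periosteal-like cells had 35.9 and 39.8 CPM, osteoblast-like cells 7.66 and 10.1 CPM, and hematopoietic cells 11.8 and 14.5 CPM. A Vegfc UMI was present in 37.8% and 37.1% of thinned reticular-like cells, in 35.3% and 27.5% of arterial-type cells, and in 0.89% and 1.82% of hematopoietic cells. Free RNA carried it at 128 and 102 CPM.

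Angpt1 was at 250 and 232 CPM in reticular-like cells. Periosteal-like cells followed at 95.4 and 91.7 CPM and preosteoblast-like cells at 76.5 and 61.0 CPM, with no overlap between these 3 classes. Arterial-type cells held 4 Angpt1 UMIs in each mouse (2.76 and 2.70 CPM), below the hematopoietic 11 and 13.8 CPM, and osteoblast-like cells had 0 and 5.03 CPM. The thinned share was 37.1% and 33.3% of reticular-like cells and 1.78% and 2.58% of hematopoietic cells, with 100 and 106 CPM in free RNA.

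Angpt4, the other Tek ligand, had the opposite order. Preosteoblast-like cells had 90.5 and 61.5 CPM (633 and 891 UMIs), and reticular-like cells 12.8 and 6.98 CPM. Preosteoblast-like values were the higher in both mice and did not overlap those of any other class. Periosteal-like cells had 17.2 and 5.33 CPM, which overlapped the reticular-like range. No Angpt4 UMI was counted in 122 and 109 arterial-type cells, where 3 UMIs would have been 2.07 and 2.03 CPM. The thinned share was 16.2% and 11.3% of preosteoblast-like cells, 1.99% and 1.33% of reticular-like cells, and 0.89% and 0.76% of hematopoietic cells, with 26.6 and 22.3 CPM in free RNA.

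**Figure D1:**
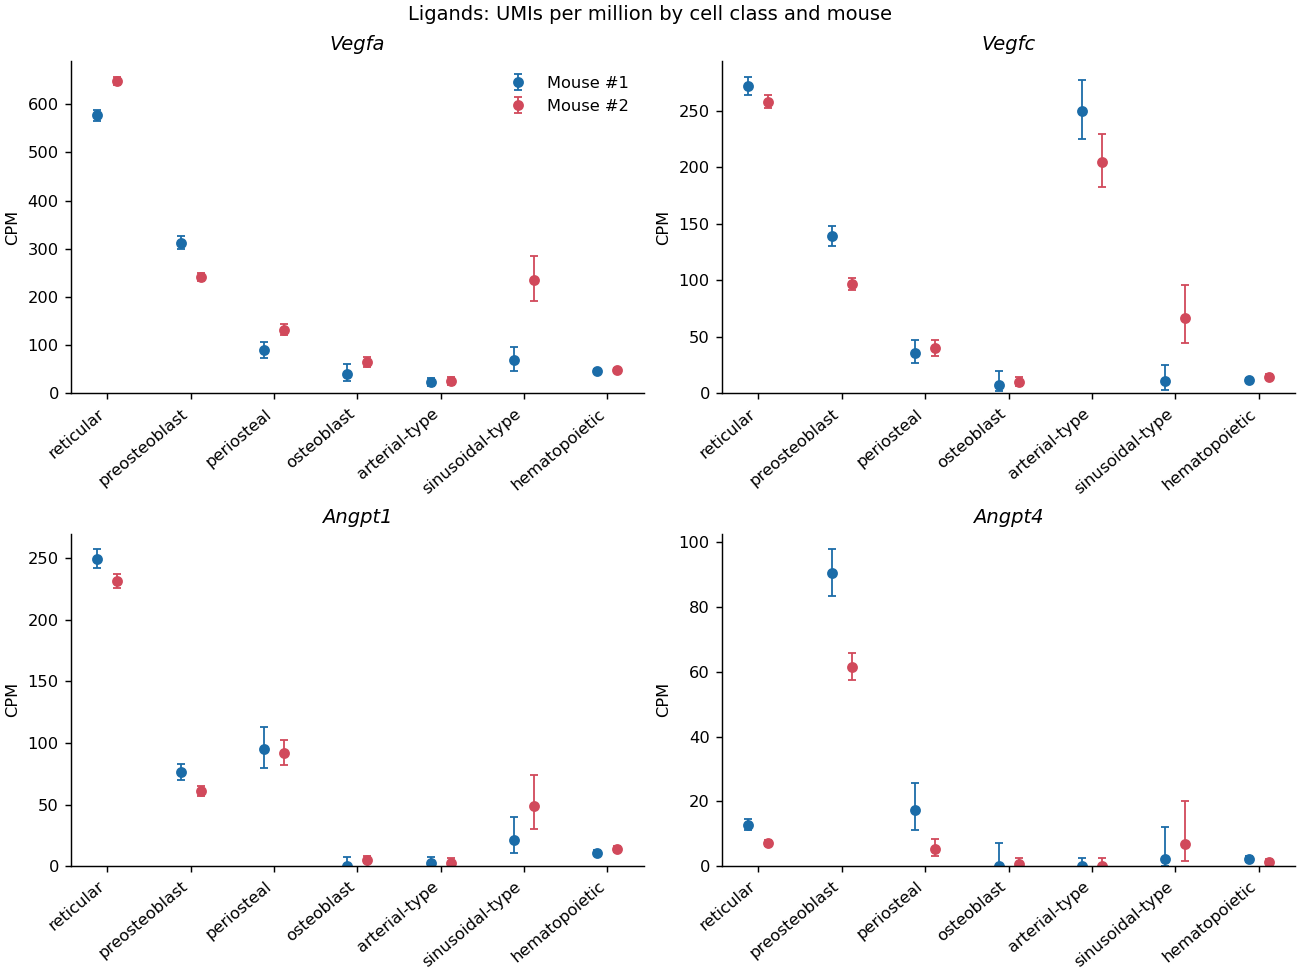
Levels of the 4 ligand genes (y axis, CPM from 0) by cell class (x axis), with 1 point for each mouse and bars for the exact 95% Poisson interval of the summed UMIs. Vegfa, Vegfc and Angpt1 are highest in reticular-like cells among the classes plotted, Vegfc is nearly as high in arterial-type cells, and Angpt4 stands out at 90.5 and 61.5 CPM in preosteoblast-like cells.

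Seen by where the transcripts lay, reticular-like cells held 72.4% and 77.0% of all Vegfa UMIs in cells, 72.2% and 77.3% of Vegfc, and 80.6% and 81.2% of Angpt1. They made up 45.9% and 52.8% of cells. Preosteoblast-like cells, 14.6% and 17.3% of cells, held 65.6% and 74.1% of Angpt4 UMIs, while reticular-like cells held 22.0% and 17.5% of them. Endothelial-like cells, only 5.49% and 3.01% of cells, held 97.1% and 90.4% of Kdr UMIs, 97.0% and 92.6% of Flt1, 95.3% and 84.1% of Flt4, 97.7% and 89.5% of Tek, and 94.7% and 93.4% of Tie1. Nrp1 was split otherwise, with 69.6% and 73.2% of its UMIs in reticular-like cells. The cells had been sorted, so all these shares describe the sorted cells and not the marrow as a whole.

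**Figure D2:**
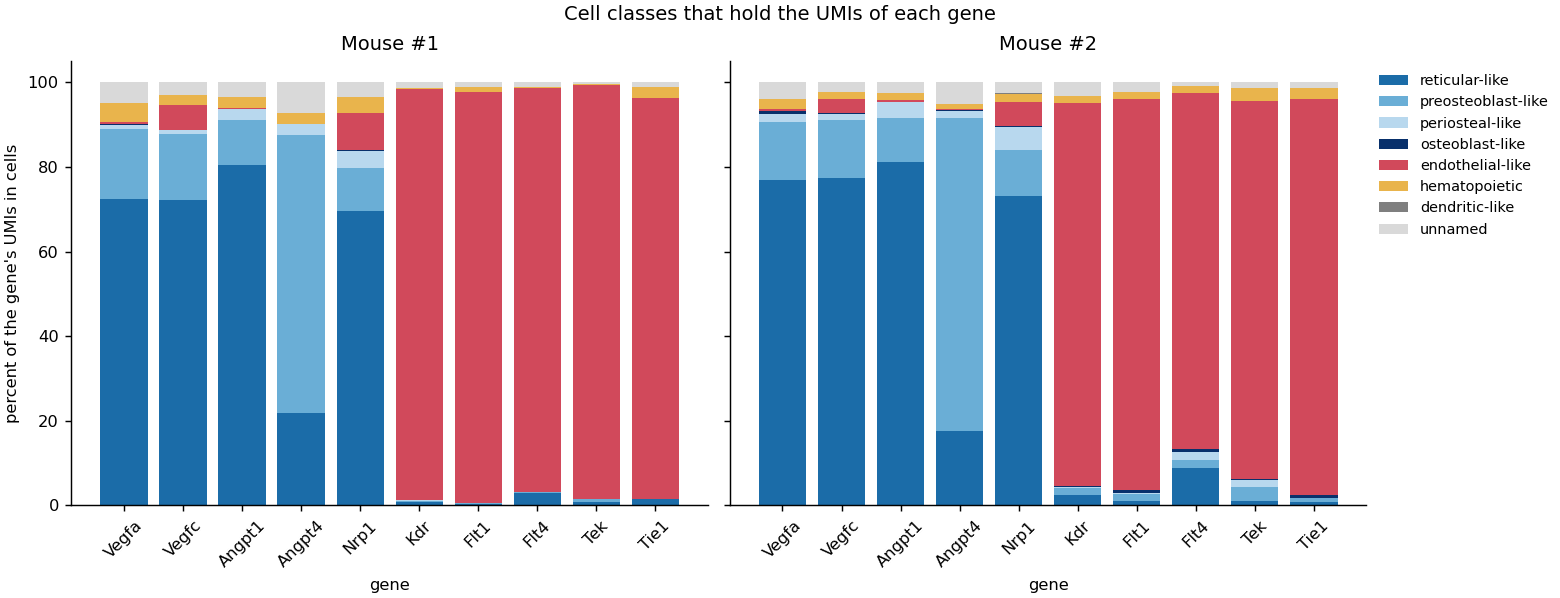
Percent of the UMIs of each gene (y axis, from 0 to 100) that fell in each class of the sorted cells, stacked by gene (x axis) with 1 panel for each mouse. Kdr, Flt1, Flt4, Tek and Tie1 lie mostly in the endothelial-like class in both mice. Nrp1 lies mostly in reticular-like cells, as Vegfa, Vegfc and Angpt1 do.

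The first comparison set reticular-like against preosteoblast-like cells, the main stromal states of the study, on UMIs summed per mouse and class (edgeR's quasi-likelihood test with Benjamini-Hochberg adjustment over all features tested, 2 sums a side). Of all features tested, 29.7% were called at an adjusted p under 0.05, with 15.4% higher and 14.3% lower in reticular-like cells. Of the 10 genes, 8 passed the low-count filter (Tek and Tie1 did not) and 5 were called, 4 of them higher in reticular-like cells and 1 lower. Vegfa was higher in reticular-like cells by 1.22 ± 0.15 on the log2 scale (SE, adjusted p = 0.00307). Vegfc was higher by 1.25 ± 0.17 (adjusted p = 0.00433), Angpt1 by 1.88 ± 0.12 (adjusted p = 0.000547) and Nrp1 by 1.67 ± 0.11 (adjusted p = 0.000508). Angpt4 was lower, at -2.89 ± 0.31 (adjusted p = 0.00222). Kdr, Flt1 and Flt4 were each at most 2.21 CPM in both classes and were not called (adjusted p = 0.901, 0.135 and 0.084). With the mouse as a block, Flt4 was called when the cells with the highest Scrublet doublet scores were removed (edgeR adjusted p = 0.0491) or when the reticular-like cluster with Fos and Egr1 among its leading genes was left out (edgeR adjusted p = 0.0332), both alternatives chosen after seeing the data.

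The other genes of the pathway were read from lists that were chosen with earlier results of these data known. Of 4 other ligands tested, 2 rose in reticular-like cells. Angpt2, a Tek ligand that can oppose Angpt1, had 42.6 and 52.9 CPM against 10.0 and 8.70 CPM (log2 difference 2.44 ± 0.15, adjusted p = 0.000508), and Figf (Vegfd), a Flt4 ligand, rose from a level under 1 CPM (1.61 ± 0.37, adjusted p = 0.0244). The median log2 difference of these 4 was 0.96, beside -0.01 over all features. Among 6 co-receptors, Itgb3, an integrin subunit, was lower (-1.93 ± 0.49, adjusted p = 0.0329), and the other 5 did not pass. Of 8 signaling genes tested, Nck1 (0.61 ± 0.09) and Foxo1 (0.57 ± 0.14) were higher (adjusted p = 0.00584 and 0.0307), and of 7 genes known to respond to VEGF in endothelium, Nr4a1 (1.46 ± 0.13) and Adamts1 (1.77 ± 0.19) were higher (adjusted p = 0.00124 and 0.00208).

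Of 12 genes induced by low oxygen, 7 rose in reticular-like cells and none fell, with a median log2 difference of 0.72. They included Adm, the peptide adrenomedullin (2.08 ± 0.15), the glucose transporter gene Slc2a1 (1.54 ± 0.15), Bnip3 (1.07 ± 0.11) and Ddit4 (0.92 ± 0.11), with adjusted p from 0.000647 to 0.00279. Of 8 oxygen sensing genes only Epas1, which encodes HIF-2alpha, passed. It stood at 714 and 863 CPM against 225 and 203 CPM (1.95 ± 0.14, adjusted p = 0.000618). Of 8 class 3 semaphorins and plexins tested, the other partners of Nrp1, 5 were lower in reticular-like cells, 0 were higher and 3 did not pass, with a median of -1.41, among them Sema3a (-1.98 ± 0.13), Plxna2 (-1.42 ± 0.14), Sema3d (-2.65 ± 0.50) and Plxna3 (-1.40 ± 0.27), at adjusted p from 0.000597 to 0.0149. Shares of a list were not tested against other genes.

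Within the reticular-like class, Vegfa varied more between clusters than Vegfc and Angpt1, and Angpt4 was low, at no more than 20.6 CPM in any cluster. Each cluster is named here by 2 of its 10 leading genes, which need not be its first 2. The cluster of Ccl2 and Tnfsf11 (409 and 1118 cells) had 842 and 852 CPM of Vegfa, and that of Bmp4 and Rspo2 (293 and 415 cells) had 296 and 240 CPM. The clusters of Hspb1 and Hspa1a (585 and 562 CPM) and of Fos and Egr1 (471 and 655 CPM) lay between them and overlapped each other. Vegfc ran in another order, at 331 and 326 CPM in the Bmp4 and Rspo2 cluster against 249 and 225 CPM in the Ccl2 and Tnfsf11 cluster. Angpt1 was likewise higher in the former, at 311 and 295 CPM against 241 and 209 CPM. Nrp1 was between 665 and 798 CPM in these 4 clusters of both mice. The remaining, shallow cluster of Cxcl9 and Rbp4 (40 and 43 cells, median depth 3572 UMIs) had 104 and 56.9 CPM of Vegfa, 207 and 222 CPM of Vegfc and 386 and 466 CPM of Nrp1. The Fos and Egr1 cluster held 301 cells in Mouse #1 and 136 in Mouse #2, a share of the class that differed between the mice. These values are descriptions, without a test.

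**Figure D3:**
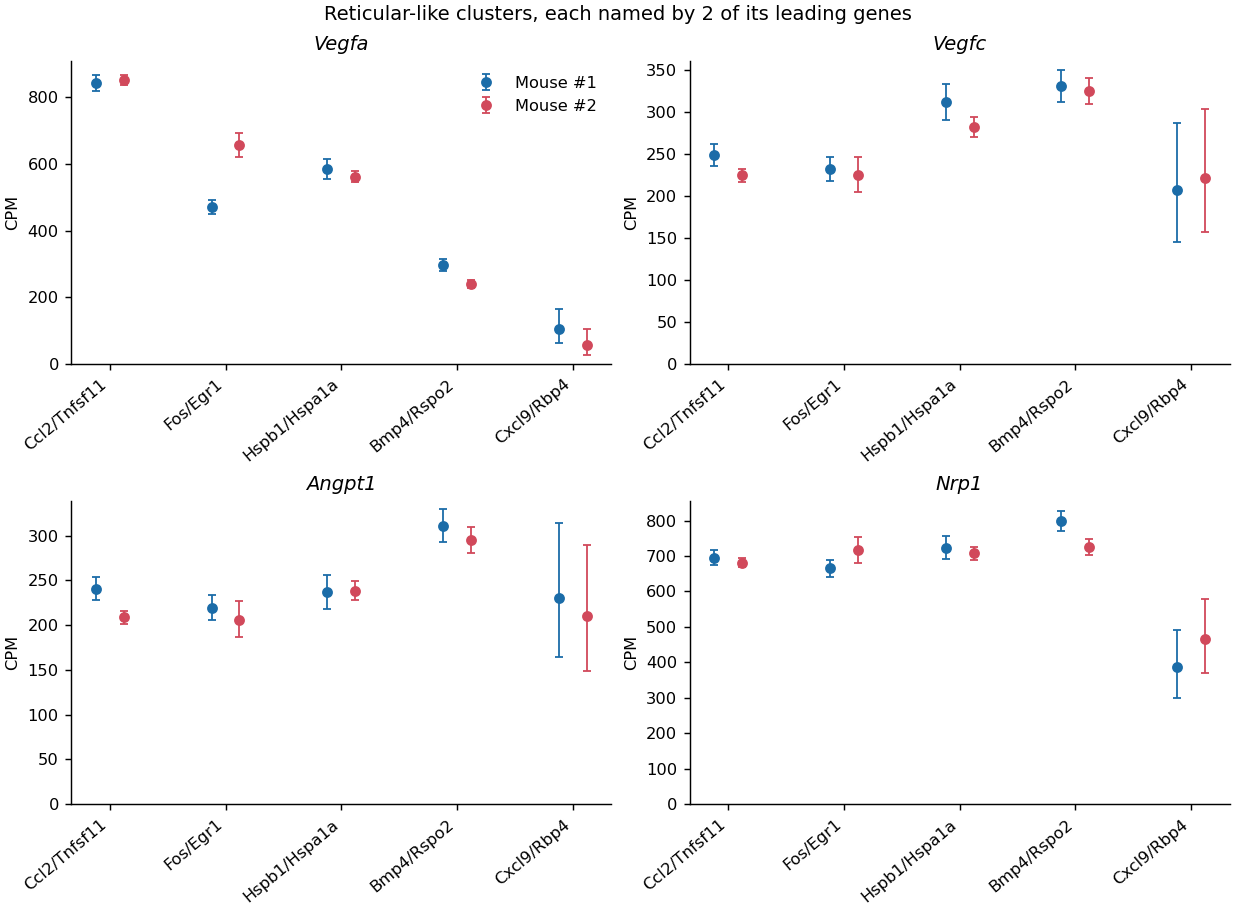
Levels (y axis, CPM) of Vegfa, Vegfc, Angpt1 and Nrp1 in the 5 reticular-like clusters (x axis), with 1 point for each mouse and exact 95% Poisson bars. Vegfa runs from 842 and 852 CPM in the cluster of Ccl2 and Tnfsf11 down to 104 and 56.9 CPM in the shallow cluster of Cxcl9 and Rbp4, while Vegfc and Angpt1 peak in the cluster of Bmp4 and Rspo2.

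Finer clustering parted the preosteoblast-like cells into 2 clusters. One was led by Omd, Wif1 and Postn (194 and 530 cells) and had 398 and 265 CPM of Vegfa and 83.3 and 55.3 CPM of Angpt4. The other was led by Kcnk2 and Ndnf (221 and 266 cells) and had 188 and 165 CPM of Vegfa and 102 and 84.6 CPM of Angpt4. Vegfa was thus lower in the second in both mice, and Vegfc (180 and 136 CPM against 117 and 87.7 CPM) and Angpt1 (107 and 81.1 CPM against 59.2 and 57.3 CPM) were higher in it. Angpt4 was among the 10 leading genes of that second cluster.

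As a description of likeness, log2(CPM + 1) was correlated over 27 sums of at least 20 cells, from 14 classes and clusters of the same 2 libraries, for 12541 genes. The points share libraries and differ in depth. Vegfa was most like Negr1 (Pearson r = 0.948), Zfp618 (0.937) and Mir143hg (0.936). Vegfc was most like Clu (0.941), Fam13c (0.940) and Kitl, the ligand of Kit (0.937). Angpt1 was most like Tnfsf11, which encodes RANKL (0.969), Gpm6b (0.968) and Ggt5 (0.963), and Angpt4 was most like Ccdc3 (0.877), Hsd11b2 (0.867) and Myl9 (0.853).

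The second comparison placed the receptors between vessel and stroma. In endothelial-like cells Kdr had 692 and 541 CPM and Flt1 1165 and 948 CPM, and in reticular-like cells both were below 1 CPM. Flt4 had 213 and 152 CPM against 0.787 and 1.03 CPM, Tek 221 and 173 CPM against 0.242 and 0.132 CPM, and Tie1 367 and 324 CPM against 0.666 and 0.198 CPM. No stromal class reached 5 CPM of any of them, and 96.3% and 96.9% of reticular-like cells held no UMI of any of these 5 receptors, beside 95.4% and 94.4% of hematopoietic cells. All 8 endothelial markers summed to 7869 and 6948 CPM in endothelial-like cells and to 15.2 and 20.1 CPM in reticular-like cells, with 0 of 8 at 0 in either class. The receptors were also few among free RNA, from 2.65 CPM (Tek, Mouse #2) to 28.7 CPM (Flt1, Mouse #1).

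In edgeR's quasi-likelihood test, 49.6% of all features were called between endothelial-like and reticular-like cells, with 25.0% higher and 24.7% lower in endothelial-like cells. All 10 genes were tested and 9 were called, 5 higher and 4 lower. The log2 differences of the higher genes were 9.40 ± 0.23 for Kdr (adjusted p = 2.2e-06), 10.48 ± 0.22 for Flt1 (1.71e-06), 7.54 ± 0.25 for Flt4 (4.69e-06), 10.02 ± 0.26 for Tek (2.5e-06) and 9.77 ± 0.32 for Tie1 (4.67e-06). Among the ligands, Angpt1 fell by 4.61 ± 0.21 (adjusted p = 1.65e-05) and Vegfa by 3.57 ± 0.32 (adjusted p = 0.000232). Without the endothelial-like sum of Mouse #2 the Vegfa difference was -4.23, and the Tie1 difference was 10.6 or 8.92 without the reticular-like sum of Mouse #1 or Mouse #2. Vegfc fell by only 0.59 ± 0.11 (adjusted p = 0.00499), at 191 and 173 CPM in endothelial-like cells. Angpt4 in reticular-like cells (12.8 and 6.98 CPM) lay below its level in free RNA (26.6 and 22.3 CPM). In endothelial-like cells it rested on 1 and 3 UMIs, with reticular-like levels 24.5 times (95% counting interval 4.36 to 974) and 4.45 times (1.5 to 21.8) as high. It was called (log2 difference -3.26 ± 0.70, adjusted p = 0.0098) but lost the call without either endothelial-like sum (adjusted p = 0.0822 without Mouse #1 and 0.0531 without Mouse #2). Intervals of counts and shares cover counting error only.

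Nrp1 was the receptor not called between these classes. It had 779 and 833 CPM in endothelial-like cells and 711 and 697 CPM in reticular-like cells, higher in the former in both mice, with a log2 difference of 0.14 ± 0.10 (adjusted p = 0.31). Periosteal-like cells had 485 and 424 CPM and preosteoblast-like cells 247 and 218 CPM. In hematopoietic cells Nrp1 was at 51.8 and 51.3 CPM, with macrophage-like cells the highest among their 4 classes at 99.2 and 109 CPM, and osteoblast-like cells had 11.5 and 37.7 CPM. The thinned share of cells with a Nrp1 UMI was 71.8% and 72.4% of reticular-like cells and 4.61% and 7.42% of hematopoietic cells, with 299 and 343 CPM in free RNA.

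**Figure D4:**
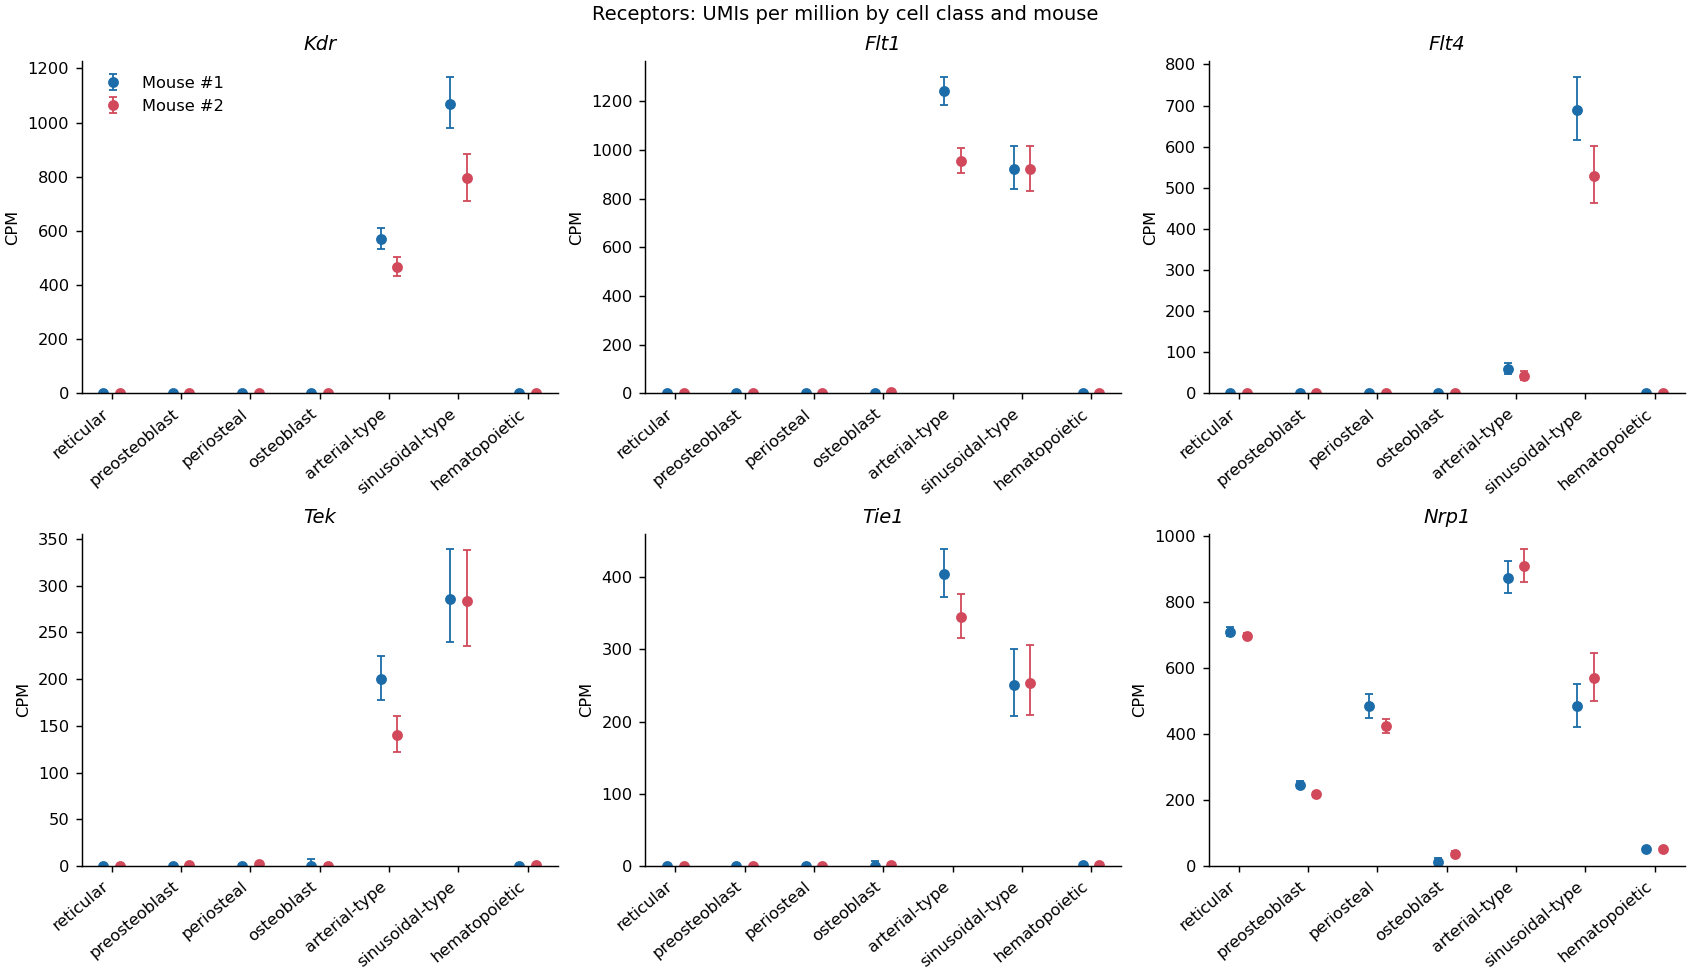
Levels of the 6 receptor genes (y axis, CPM from 0) by cell class (x axis), with 1 point for each mouse and exact 95% Poisson bars. Kdr, Flt1, Flt4, Tek and Tie1 are near 0 outside the endothelial-like types, Flt4 is highest in the sinusoidal-type, and Nrp1 is at 711 and 697 CPM in reticular-like cells beside 874 and 909 CPM in arterial-type cells.

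The rest of the endothelial pathway was counted by list. Of 12 signaling genes tested, 10 were higher in endothelial-like cells and 0 lower, led by Cdh5, the endothelial cadherin (log2 difference 11.18 ± 0.21, adjusted p = 1.45e-06), the ETS factor gene Erg (8.90 ± 0.21), Nos3, the endothelial nitric oxide synthase (8.92 ± 0.24), and Rasip1 (10.28 ± 0.33), the last 3 at adjusted p from 2.04e-06 to 4.5e-06. The list median was 1.77, against -0.04 over all features. All 6 co-receptor genes were called, 4 higher and 2 lower. Ptprb, the phosphatase that acts on Tek, led them (11.30 ± 0.30, adjusted p = 2.5e-06), followed by Eng (2.93 ± 0.17, adjusted p = 4.4e-05), Itga5 (1.85 ± 0.16, adjusted p = 0.000229) and, lower, Itgav (-0.93 ± 0.10, adjusted p = 0.000612). Of 4 other ligands, Vegfb was lower (-1.92 ± 0.15, adjusted p = 0.000145), and Pgf, a Flt1 ligand, was higher (1.76 ± 0.59, adjusted p = 0.0476). It had 169 CPM in endothelial-like cells of Mouse #2 but 34.5 CPM in those of Mouse #1, close to the reticular-like 30.4 and 27.7 CPM.

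Of 8 VEGF-responsive genes, 4 were higher in endothelial-like cells. Dll4, a Notch ligand of endothelium, had 176 and 134 CPM against 3 and 5 UMIs in reticular-like cells, 967 times (328 to 4714) and 812 times (343 to 2521) as high, at a log2 difference of 9.68 ± 0.25 (adjusted p = 2.5e-06). Rcan1 (2.19 ± 0.17), Apln (4.70 ± 0.38) and Dusp5 (1.46 ± 0.35) followed, at adjusted p from 0.00013 to 0.0158. The oxygen sensing genes gave 1 higher, Hif1a (0.66 ± 0.10, adjusted p = 0.00219), and 1 lower, Vhl (-1.09 ± 0.24, adjusted p = 0.0109), of 8 tested. The hypoxia-induced genes gave 5 higher and 2 lower of 12, with Pdk1 (2.41 ± 0.19), Ndrg1 (2.54 ± 0.22) and Pgk1 (1.34 ± 0.15) higher and P4ha1 (-1.16 ± 0.13) lower, at adjusted p from 0.000137 to 0.000574. Of 9 semaphorin and plexin genes, 4 were higher and 2 lower. Sema3f rested on 1 and 7 reticular-like UMIs, with endothelial-like levels 1909 times (339 to 75729) and 433 times (206 to 1092) as high (adjusted p = 3.21e-06). Plxna4 (7.16 ± 0.36), Sema3a (3.69 ± 0.29) and Plxnd1 (1.08 ± 0.10) were also higher, at adjusted p from 2.36e-05 to 0.000303.

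Single endothelial-like cells carried the receptors together. Of Kdr, Flt1, Flt4, Tek and Tie1, the median arterial-type cell held UMIs of 4 in both mice and the median sinusoidal-type cell held UMIs of 5. At least 3 were seen in 112 of 122 and 100 of 109 arterial-type cells, and in 28 of 29 and 27 of 29 sinusoidal-type cells. Kdr and Flt4 were seen together in 27 of 29 sinusoidal-type cells in each mouse, but in 45 of 122 and 43 of 109 arterial-type cells. These counts were not thinned, and sinusoidal-type cells were the deeper, with a median of 14127 and 12439 UMIs against 9726 and 10901.

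The third comparison set arterial-type against sinusoidal-type cells, where 21% of features were called, 9.29% higher and 11.7% lower in arterial-type cells. Angpt4 did not pass the filter. Of the 9 genes tested, 7 were called, 2 higher and 5 lower. Flt4 differed most among receptors, with 59.4 and 41.9 CPM in arterial-type cells against 690 and 528 CPM in sinusoidal-type cells. The log2 difference was -3.70 ± 0.24 (adjusted p = 8.73e-05), and the thinned share of cells with a Flt4 UMI was 9.84% and 8.26% against 72.4% and 62.1%. The other receptors differed less.

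Kdr had 570 and 467 CPM in arterial-type cells and 1070 and 794 CPM in sinusoidal-type cells (log2 difference -0.95 ± 0.19, adjusted p = 0.0123). Tek had 200 and 140 CPM against 286 and 284 CPM (-0.85 ± 0.21, adjusted p = 0.0273). Both were lower in arterial-type cells without overlap, as Nrp1 was higher, at 874 and 909 CPM against 484 and 570 CPM (0.65 ± 0.17, adjusted p = 0.032). The Tek call was lost without the arterial-type sum of Mouse #2 (adjusted p = 0.169) and with DESeq2 (adjusted p = 0.0574). The Nrp1 call was lost without arterial-type Mouse #1 (adjusted p = 0.0621), arterial-type Mouse #2 (0.0873) or sinusoidal-type Mouse #1 (0.190). Flt1, at 1242 and 956 CPM against 924 and 921 CPM, was not called (0.14 ± 0.17, adjusted p = 0.627), and neither was Tie1, at 404 and 345 CPM against 251 and 254 CPM (0.46 ± 0.17, adjusted p = 0.105). Without a low-count filter, Flt4 (adjusted p = 0.00916) and Angpt1 (0.0463) alone kept their calls.

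The ligands in endothelial-like cells split by type as well. Vegfc had 250 and 205 CPM in arterial-type cells and 10.7 and 66.9 CPM (5 and 29 UMIs) in sinusoidal-type cells, higher in the former by 2.45 ± 0.52 (adjusted p = 0.0146, and 0.198 with DESeq2). Vegfa and Angpt1 went the other way. Vegfa had 23.5 and 25.0 CPM in arterial-type cells, below the hematopoietic level, and 68.8 and 235 CPM in sinusoidal-type cells (-2.75 ± 0.53, adjusted p = 0.00976). Angpt1 had 4 UMIs in each arterial-type sum against 21.5 and 48.5 CPM in sinusoidal-type cells (-3.72 ± 0.58, adjusted p = 0.00399). The sinusoidal-type values of Angpt1 rested on 10 and 21 UMIs, in 4 and 8 of 29 cells. These differences moved with the sinusoidal-type sum that was left out. Without that of Mouse #1, Vegfa was at -3.45 and Vegfc at 1.59, and without that of Mouse #2 they were at -1.60 and 4.29, with Angpt1 at -3.02, all still called.

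Stromal markers were also higher in sinusoidal-type than in arterial-type cells, as Vegfa and Angpt1 were and Vegfc was not. The 8 reticular markers summed to 2067 and 3422 CPM in sinusoidal-type cells, 442 and 589 CPM in arterial-type cells, 1304 and 1376 CPM in hematopoietic cells and 17393 and 15036 CPM in reticular-like cells, with 0 of 8 at 0 in each. The 8 preosteoblast markers summed to 4167 and 3833 CPM in sinusoidal-type and 196 and 720 CPM in arterial-type cells, again with 0 of 8 at 0. Most of the sinusoidal-type sum lay in its highest single gene, at 2903 and 2799 CPM, and the lowest had 12.9 and 13.8 CPM. The part of stromal markers in the ligand differences was not tested. When the cells with the highest Scrublet doublet scores were removed, 28 and 25 sinusoidal-type cells were left, with Vegfa at 71.4 and 108 CPM, Vegfc at 12.3 and 27.1 CPM, Angpt1 at 24.6 and 21 CPM and reticular markers at 2240 and 2098 CPM. Angpt1 and the reticular markers were then close in the 2 mice, while Vegfa and Vegfc were still higher in Mouse #2. The same comparison gave -1.96 ± 0.30 for Vegfa (adjusted p = 0.00102), 3.47 ± 0.32 for Vegfc and -3.04 ± 0.54 for Angpt1 (adjusted p = 0.00257).

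**Figure D5:**
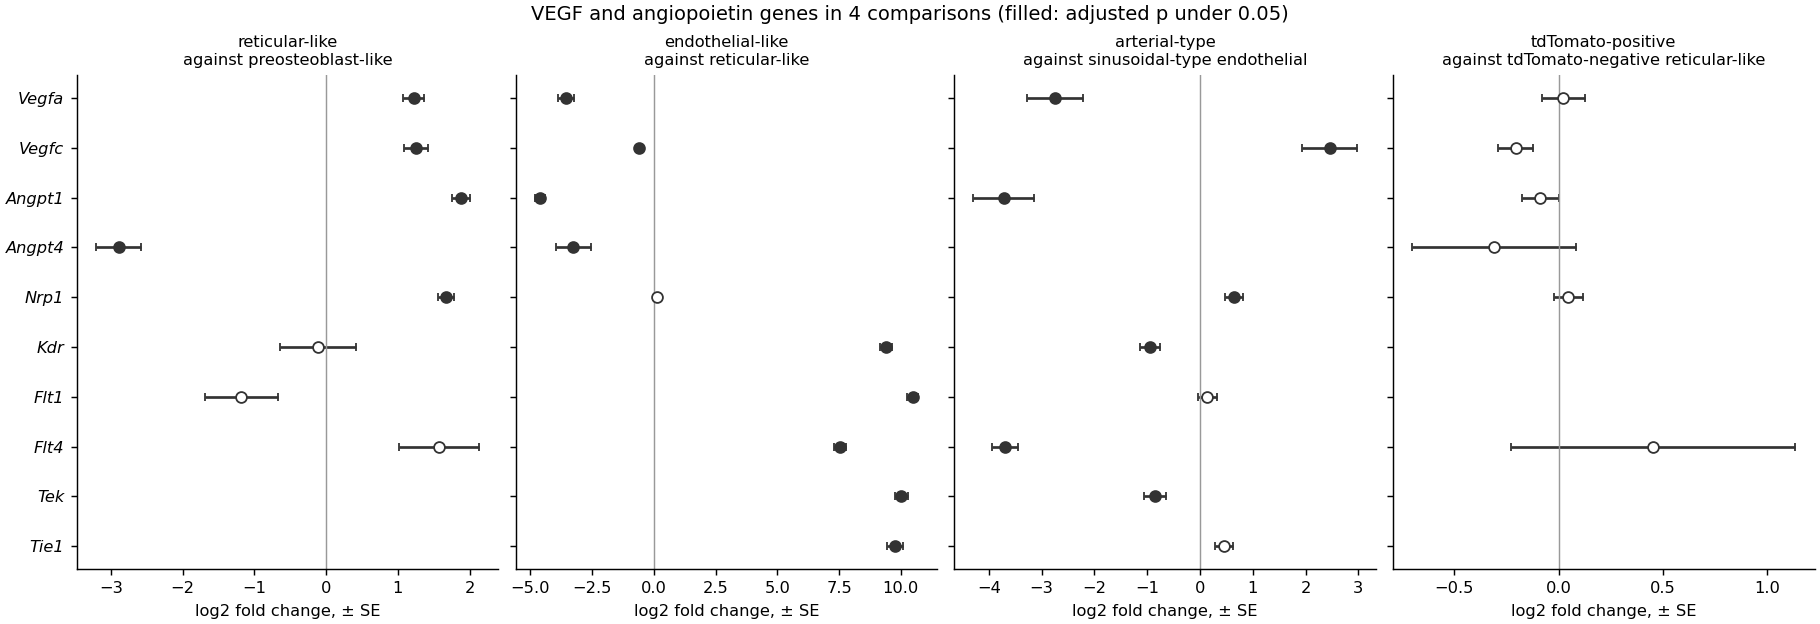
Log2 fold change (x axis, ± SE) of each gene (y axis) in the 4 comparisons, the first-named class over the second, from edgeR's quasi-likelihood test on 2 sums a side. Filled points passed an adjusted p of 0.05, and genes without a point did not pass the low-count filter. Receptors other than Nrp1 lie between 7.54 and 10.48 in the endothelial-like comparison, Flt4 is lowest among receptors between the endothelial types, and no gene passed between tdTomato-positive and tdTomato-negative cells.

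Around these receptors, 5 of 6 co-receptor genes were called between the endothelial types, 2 higher and 3 lower in arterial-type cells. Nrp2, a co-receptor of Flt4, followed Flt4, with 109 and 134 CPM against 428 and 489 CPM (-2.03 ± 0.19, adjusted p = 0.000479). Ptprb (0.89 ± 0.17) and Itga5 (1.16 ± 0.32) were higher and Itgav (-1.11 ± 0.22) was lower, at adjusted p from 0.0109 to 0.0381. Of 12 signaling genes tested, Nos3 (2.83 ± 0.28, adjusted p = 0.000576) and Nck1 (1.31 ± 0.18, adjusted p = 0.00259) were higher and Gab1, an adaptor, was lower (-2.06 ± 0.26, adjusted p = 0.00157). Of 7 VEGF-responsive genes, Dll4 (1.70 ± 0.28) and Apln were higher, and Dusp5 (-2.18 ± 0.18), Kdm7a (-0.90 ± 0.19) and 1 more were lower. Apln rested on 1 and 2 sinusoidal-type UMIs, with arterial-type levels 8.68 times (1.43 to 356) and 3.95 times (0.993 to 34.3) as high (adjusted p = 0.0297).

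Of 3 other ligands tested, Pgf alone was called. It stood at 44.9 and 217 CPM in arterial-type cells and at 1 and 3 UMIs in sinusoidal-type cells, 20.9 times (3.62 to 838) and 31.3 times (10.6 to 153) as high in the former (adjusted p = 0.0264). Of 7 oxygen sensing genes Hif1a was lower in arterial-type cells, at 179 and 204 CPM against 445 and 397 CPM (-1.25 ± 0.17, adjusted p = 0.00222). Of 12 hypoxia-induced genes, 3 were higher and 2 lower, with Higd1a (1.01 ± 0.21) and Ddit4 (0.97 ± 0.23) among the former and Slc2a1 (-1.99 ± 0.24) and Ndrg1 (-1.47 ± 0.23) the latter. Of 6 semaphorin and plexin genes, Plxnd1 (-0.93 ± 0.19, adjusted p = 0.0138) and Sema3a were lower. Sema3a, a Nrp1 ligand, had 484 and 275 CPM in sinusoidal-type cells against 1 UMI in each arterial-type sum, 700 times (124 to 27750) and 407 times (71.6 to 16197) as high in the former (adjusted p = 5.09e-05). Nrp1 and this ligand were thus higher in different endothelial types.

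The last comparison set reticular-like cells above a limit of tdTomato, the mark of Cxcl12-creER action, against those not above it. The limit for tdTomato was set in each mouse at the 99th percentile among hematopoietic cells (8.05 and 14.7 UMIs per 10000) and gave 503 and 975 positive and 759 and 1443 negative cells. A tdTomato UMI was held by 734 and 1650 reticular-like cells, so the negative cells included some with tdTomato UMIs. Positive cells had 571 and 652 CPM of Vegfa against 581 and 646 CPM (log2 difference 0.02 ± 0.10). Angpt1 had 244 and 214 CPM against 253 and 243 CPM (-0.09 ± 0.09), and Nrp1 721 and 698 CPM against 704 and 697 CPM (0.05 ± 0.07). For these 3 genes the ranges of positive and negative cells overlapped. Within each mouse, Angpt1 was the lower and Nrp1 the higher in positive cells, and Vegfa was the lower in Mouse #1 and the higher in Mouse #2. None of the 3 was called with the mouse as a block (edgeR adjusted p = 0.894 for Vegfa, 0.466 for Angpt1 and 0.723 for Nrp1). Angpt4 had 10.8 and 6.36 CPM against 14.2 and 7.4 CPM (-0.31 ± 0.39), and Flt4 was at or under 1.5 CPM throughout.

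Vegfc was lower in positive cells, at 253 and 227 CPM against 285 and 279 CPM, with no overlap. Its log2 difference was -0.20 ± 0.08 (adjusted p = 0.991), and 0 of the 6 genes tested were called, against 0% of all features (0 of 12199). At an unadjusted p under 0.05 there were 463 features and 0 of the 6 genes, and DESeq2 called 4 features and 0 of the 6. Because positive and negative cells of a pair came from the same mouse, a block for the mouse (the replicate block) was also fitted. With the block, 4.14% of features were called and 2.15% were lower in positive cells, and of the 6 genes Vegfc was called (-0.21 ± 0.06, adjusted p = 0.0288). That call was not made with the block when the Fos and Egr1 cluster was left out, nor when any tdTomato UMI counted as positive. All pathway lists gave 0 calls without the block. With it, Angpt2, Ndrg1, Slc2a1 and Bnip3 were higher and Pgf, Itgav, Itgb3 and Plxna2 lower in positive cells, named after their values were seen, with log2 differences from -0.80 ± 0.22 for Itgb3 to 0.38 ± 0.09 for Slc2a1.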

How the data were processed

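Single-cell RNA sequencing (10x Chromium 3' v3) was performed on FACS-sorted femoral cells of 2 mice. The authors deposited counts of UMIs for each feature and barcode, made with Cell Ranger 3.0.0 per the file headers on mm10 with reporter sequences added, without a cell filter (6794880 barcodes per library). Seurat is also named in the submitters' processing notes, and the annotation release is not given in the sources used here.

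Cells had 1000 or more genes and 15% or less mitochondrial UMIs. Counts were log-normalized, and 30 principal components of 2000 variable genes were clustered (scanpy 1.11.5, leidenalg 0.10.2, 15 neighbors, resolution 0.5). A cluster was named from marker genes raised 1.5 times or more, at least 3 of them, and 4 clusters stayed unnamed, 3 for cell cycle genes and 1 for shallow depth. These names are not the study's, from which the classes may therefore differ. Doublets were kept, since Scrublet's automatic limit marked only 1 and 3 cells and had not worked. Removing the highest scores (60 and 168 cells) was an alternative.

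UMIs were summed per mouse and class. CPM are UMIs of a gene per 1000000 UMIs of the sum, with exact Poisson 95% intervals, and shares of cells were read after thinning to 2000 UMIs. Sums were tested with edgeR 4.0.16 in R 4.3.3 (quasi-likelihood test, TMM, filterByExpr, Benjamini-Hochberg over all features). Each SE given is the size of the log2 difference divided by the square root of the test's F statistic. It therefore draws on variance shared across features and not on the 2 mice alone. The main edgeR fit was also run on simulated counts with a fixed dispersion and no effect of the mouse, unlike these paired sums. P-values of the main fits measure the spread between 2 mice within each class, with sums of the same mouse treated as independent. With the block they measure the spread of the difference within mice. The pairing comes from the animals, and deviations of the same mouse correlated across genes at 0.314, 0.140, 0.0936 and 0.510 in the 4 comparisons in the order reported.

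All 10 genes are named, with up to 4 called genes of smallest p per pathway list and the 3 genes most like each ligand among genes reaching 10 CPM. Genes and lists were chosen with earlier results of these data known. Gene positions are from GENCODE M21, and promoter sequences from RefSeq. Alternatives were DESeq2 1.42.0, its size factors, no low-count filter, limits of 2000 genes and 10% mitochondrial UMIs, resolution 1.0, leaving out each sum, the mouse block, any tdTomato UMI as positive, and, chosen after seeing the data, leaving out the Fos and Egr1 cluster and combining the block with other settings.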

Additional observations from a re-analysis of the deposited data

How the results depend on the processing

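The number of the 10 genes called stayed within 1.5 times the reported one in 56 of the alternatives run and moved in 4. Over 29 pairs of gene and comparison, single gene differences kept direction and call in 403, lost the call in 13, gained it in 3 and changed sign in 8. Pairs at under 10 CPM in every sum (Kdr, Flt1 and Flt4 in the first comparison, Flt4 in the last) were left out, and of these Flt4 in the first was called with the block and either Scrublet removal (adjusted p = 0.0491) or no Fos and Egr1 cluster (0.0332). Between the endothelial types the count fell from 7 to 2 without a low-count filter. Between tdTomato-positive and tdTomato-negative cells it rose from 0 to 1 with the replicate block, to 1 with the block and stricter cell limits, and to 1 with the block and the highest Scrublet scores removed, the gene being Vegfc each time. The pairing by mouse through the block alone changed no other call of the 10 genes, and in the first 3 comparisons it added at most 2 calls per pathway list and direction. Small differences turned. Vegfa between tdTomato-positive and tdTomato-negative cells was -0.051 when any tdTomato UMI counted as positive and -0.044 with the block besides. Leaving out 1 sum at a time gave -0.079 to 0.13 for Vegfa, -0.17 to 0.00026 for Angpt1 and -0.74 to 0.20 for Angpt4 there, and -0.032 to 0.34 for Flt1 between the endothelial types, none of them called. The cause was not tested.

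Counts over all features moved more. Reticular-like against preosteoblast-like cells gave 3848, and 1376 to 3026 without 1 sum. The endothelial types gave 1764, with 688 without the filter, 1025 with DESeq2 and 1016 to 1641 without 1 sum. tdTomato-positive against tdTomato-negative cells gave 0, with 505 with the block, 529 and 655 with the block and stricter limits or Scrublet removal, 353 with the block and no Fos and Egr1 cluster, 109 with the block and any tdTomato UMI, 75 without the filter, 4 with DESeq2, 1 with any tdTomato UMI and 0 to 7 without 1 sum. Leaving out 1 sum left a lone sum that was assumed to vary like the other side. Averaged over the 2 mice, other cell limits changed 26 levels of at least 10 CPM by 0.507 to 1.12 times, and the 26 matching unthinned shares were 12 to 50 percentage points higher. The sinusoidal-type class, with 29 cells a mouse, and genes with few UMIs set the precision.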

Other observations

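A shallow cluster of 56 and 140 cells (median 3224 and 2993 UMIs) was left unnamed because none of its leading genes was a marker, and Mir143hg was among them. It had 1017 and 1105 CPM of Vegfa, above both reticular-like values, with 119 and 113 CPM of Vegfc, 206 and 228 CPM of Angpt1 and 492 and 492 CPM of Nrp1. The unnamed cluster of cycling cells with raised preosteoblast markers (30 and 61 cells) had 254 and 211 CPM of Vegfa and 42.8 and 38.9 CPM of Angpt4, which is above the reticular-like and below the preosteoblast-like level of Angpt4 in both mice.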
